A study of Mus musculus with 3 samples.

Results

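The CCGG sites described here lie in CpG-poor promoters, which are the 1 kb on each side of a protein-coding transcription start site whose centred 500 bp of genome sequence has a CpG ratio below 0.48. The CpG ratio is the number of CpG dinucleotides divided by the number that the C and G content of the window would give. Of 969545 autosomal CCGG sites listed in any of the 3 MethylRAD libraries, 19923 lay in such promoters. The genome has 29375 CCGG motifs in these windows, around 16594 start sites of 10308 genes, so that 9452 motifs were listed in no library. The rule used sequence and position only, and listing and reads were the readouts. The undifferentiated library was made from E14Tg2A, an established line of mouse embryonic stem cells (ESCs) grown with leukemia inhibitory factor. The untreated and treated libraries came from the same line on day 7 of differentiation, induced by withdrawal of that factor and addition of retinoic acid, without and with 3 mM pargyline, an inhibitor of the histone demethylase LSD1. The day comes from the study's methods, since the labels give none, and a tag on the deposited lists may denote another day. There was 1 library per condition, so a difference between libraries could not be set against a spread between replicates, and no test across conditions was made. All 95% intervals given here cover counting error only. Genomic DNA was sequenced, so the labelled cell type could not be checked against expressed markers.

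Most promoters that are rich in CpG belong to broadly used genes and stay free of DNA methylation. CpG-poor promoters belong mainly to genes that are used in few tissues, such as those of odorant receptors, keratins or digestive enzymes, and their CpGs are commonly methylated in cells that do not use the gene. Loss of CpG over evolutionary time goes with germline methylation, because a methylated cytosine mutates readily to thymine. During ESC differentiation, the de novo methyltransferases DNMT3A and DNMT3B add methyl groups, also at genes that maintain pluripotency. FspEI cuts at a fixed distance on both sides of a methylated CCGG and releases a short tag, and an unmethylated CCGG gives no tag. The reads at a site therefore increase with its methylation. The authors deposited a site only if it had at least 5 reads, so a motif that is not listed had between 0 and 4 reads.

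The sequences of a few of these sites are shown because the differences between libraries described below turn on them. Each is written 5′ to 3′ on the strand of the gene in the GRCm38 assembly, with the CCGG in capitals. The short ones hold 13 bases on each side of the CCGG, which is most of the tag that FspEI releases. The sites of Cxcl15 (chr5:90794476-90794505, upstream of the start site), Gdf3 (chr6:122609195-122609224, intron), Pou5f1 (chr17:35505796-35505825, upstream) and Lrrc4b (chr7:44442811-44442840, intron) had few or no reads in undifferentiated ESCs and more on day 7.
Cxcl15: agaaagaaaatctCCGGggctgctgggagc
Gdf3: tgcgaaatgagctCCGGtcctcttaagcat
Pou5f1: gtttgtgaggtgtCCGGtgacccaaggcag
Lrrc4b: ggaacaaaggcccCCGGcccctgccgaggc
The sites of Klhdc7a (chr4:139968051-139968080, upstream), Zdhhc1 (chr8:105484942-105484971, intron) and Vmn1r27 (chr6:58215582-58215611, coding exon) had fewer reads on day 7.
Klhdc7a: ggctccacctgctCCGGgaaccaaggcaaa
Zdhhc1: ggcaggaataacaCCGGtaaagccatctcc
Vmn1r27: catacagtagtagCCGGatcttctatgttc
The site of Cldn9 (chr17:23684102-23684131, upstream) and a site in the 5′ UTR of Has2 (chr15:56694350-56694379) had most of their reads in the treated library.
Cldn9: tttcaccattgctCCGGtttatgctaccca
Has2: gctgagtcttgacCCGGcttgtaggttgat

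Longer stretches show how sparse CpG is in these promoters. In 295 bp upstream of the Spp1 start site (chr5:104434594-104434888), there were 5 CpGs, and 3 of them lay in the CCGG motifs shown. In 115 bp of intron upstream of a start site of Dppa2 (chr16:48310080-48310194), 2 of 3 CpGs lay in CCGG motifs, and in 147 bp upstream of Rbpj (chr5:53555687-53555833) both CpGs did. These 3 promoters had fewer reads in the treated than in the untreated library.
Spp1: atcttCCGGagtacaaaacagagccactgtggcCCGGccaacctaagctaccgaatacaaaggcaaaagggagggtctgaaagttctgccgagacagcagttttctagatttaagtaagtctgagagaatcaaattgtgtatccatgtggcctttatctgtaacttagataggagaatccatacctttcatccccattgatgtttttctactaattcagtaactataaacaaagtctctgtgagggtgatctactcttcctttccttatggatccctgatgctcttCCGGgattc
Dppa2: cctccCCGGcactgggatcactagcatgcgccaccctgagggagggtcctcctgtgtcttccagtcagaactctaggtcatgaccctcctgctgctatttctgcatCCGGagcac
Rbpj: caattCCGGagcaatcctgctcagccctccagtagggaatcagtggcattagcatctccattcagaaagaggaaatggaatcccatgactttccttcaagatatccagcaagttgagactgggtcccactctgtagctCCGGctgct

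CpG-poor promoters had more of their CCGG motifs listed than other promoters, and more motifs were listed on day 7. In undifferentiated ESCs, 51.7% of the 29375 motifs were listed (95% Wilson interval, 51.1 to 52.2%). The share was 55.4% (54.9 to 56.0%) in the untreated and 59.9% (59.3 to 60.4%) in the treated library. In promoters of intermediate CpG content, the shares were 15.6%, 22.7% and 29.4%, and in promoters of high CpG content 6.52%, 12.4% and 15.1%. The intervals of the classes did not overlap, and CpG-poor promoters were above intermediate promoters in 19 of 19 autosomes in each library. Outside all promoters, 59.1%, 59.2% and 59.4% of motifs were listed, so CpG-poor promoters were below that level in the undifferentiated library and at it in the treated library. With a minimum of 10 reads, the treated share was also below it (45.6% against 48.9%), and with that minimum adjusted for library size it was 48.0% against 50.8%. The direction turned without the 5852 motifs that also lie near a start site of another CpG class, of which 16.3% were listed in undifferentiated cells. The other 23523 motifs of CpG-poor promoters were listed at 60.5% (59.9 to 61.1%), 63.4% and 67.1%, above the level outside promoters in each library, although with a minimum of 10 reads the undifferentiated share was below it (49.4% against 50.4%), and with the size-adjusted minimum the untreated share also was (46.1% against 46.5%). The order undifferentiated, untreated, treated held in 19 of 19 autosomes. With a minimum of 10 reads the order was kept, at 41.5%, 43.8% and 45.6%. With a minimum of 10 reads adjusted for library size, the untreated share (39.0%) was below the undifferentiated share (41.5%), whereas the treated share (48.0%) stayed above both.

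The libraries differed in depth and in their content of reads. The lists held 30438677, 35285676 and 24776897 reads at autosomal CCGG sites in the undifferentiated, untreated and treated libraries, of which CpG-poor promoters took 1.60%, 1.58% and 1.73%. A listed site in a CpG-poor promoter had a median of 23, 24 and 19 reads, and the highest site had 877 reads. For comparisons of reads, counts were divided by scale factors of 1, 1.22 and 0.857, the median count ratios to the undifferentiated library at sites listed in all 3 libraries. At CCAGG motifs, a second target of FspEI, the undifferentiated and untreated lists held nearly the same counts (263033 and 263032 listed motifs on the autosomes), so at least 1 of these lists may not hold its own CCAGG reads. In the windows of CpG-poor promoters, 10.7% of CCAGG motifs were listed in these shared counts and 34.4% in the treated library. Because of the shared counts, no comparison between libraries was drawn from CCAGG motifs.

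The share of listed motifs depended on how far CpG was depleted at the nearest CpG-poor start site. At start sites with a CpG ratio below 0.1, 58.4% of 1950 motifs were listed in undifferentiated ESCs, 58.0% in untreated and 59.0% in treated cells, and the intervals overlapped. At ratios of 0.1 to 0.2, the shares were 64.1%, 65.4% and 67.0%, and at 0.2 to 0.3 they were 60.4%, 63.9% and 66.0%. At ratios of 0.3 to 0.4, they were 49.6%, 53.6% and 59.1%. At ratios of 0.4 to 0.48, 34.0% (32.9 to 35.1%) of 7183 motifs were listed in undifferentiated, 40.6% (39.5 to 41.7%) in untreated and 49.4% (48.2 to 50.6%) in treated cells. Without motifs also near a start site of another CpG class, which was tried after the data were seen, the shares were 60.5%, 59.8% and 60.8% at ratios below 0.1 and 44.4%, 50.3% and 59.3% at 0.4 to 0.48. The least depleted start sites thus had the lowest listing in ESCs and the widest gap between the libraries, and the most depleted start sites had nearly equal listing in all 3.

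**Figure D1:**
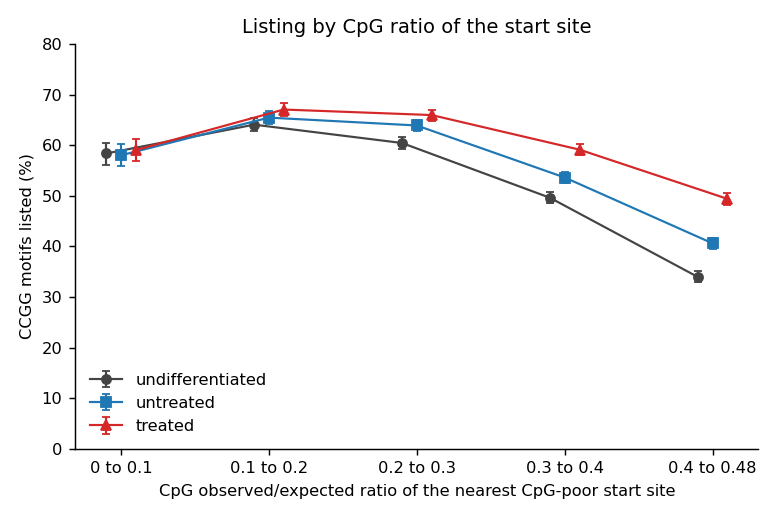
Percent of CCGG motifs within 1 kb of a CpG-poor start site that were listed (y axis), by the CpG ratio of the nearest such start site (x axis), in the 3 libraries, with 95% Wilson intervals as bars. The 3 libraries lie together at ratios below 0.1 (58.0% to 59.0%) and spread apart at ratios of 0.4 to 0.48 (34.0%, 40.6% and 49.4%).

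With the size-adjusted minimum of 10 reads, the treated share at ratios of 0.4 to 0.48 was still above the undifferentiated one (34.7% against 24.3%), but the untreated share (23.5%) was not. At ratios below 0.1 the size-adjusted shares were 49.2%, 44.2% and 50.3%. Median reads at listed sites also followed the ratio, from 29 reads below 0.1 to 17 reads at 0.4 to 0.48 in undifferentiated cells. The limit of 0.48 lay within a gradual change. Just inside it, at ratios of 0.46 to 0.48, 28.6%, 36.3% and 46.6% of motifs were listed in the undifferentiated, untreated and treated libraries, and just outside, at 0.48 to 0.50, the shares were 29.2%, 36.5% and 45.8%.

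Over all motifs of CpG-poor promoters, listing was highest at the start site, where intermediate promoters had a dip. From the start site to 100 bp downstream, 58.6%, 63.3% and 69.6% of 2358 motifs were listed in the undifferentiated, untreated and treated libraries. Between 700 and 600 bp upstream, 44.1%, 47.9% and 52.1% of motifs were listed. Within 100 bp on either side, the shares were 57.3%, 61.4% and 68.5%, against 48.6%, 51.9% and 55.4% at 500 to 1000 bp. These differences were 8.77 (7.04 to 10.5), 9.42 (7.70 to 11.1) and 13.1 (11.4 to 14.7) percentage points. They rested largely on motifs that also lie within 1 kb of a start site of another CpG class, which made up more of the distant motifs. Without those, the difference was −0.05 (−1.90 to 1.79) points in undifferentiated, 1.0 (−0.82 to 2.81) in untreated and 5.29 (3.53 to 7.01) in treated cells, so that only the treated interval lay above 0. With a minimum of 10 reads as well, which was tried after the data were seen, the treated interval reached 0 (1.67 points, −0.21 to 3.55), the untreated difference was −0.48 (−2.37 to 1.40) and the undifferentiated difference was −2.91 (−4.79 to −1.02). The higher listing next to the start site was therefore not kept in these motifs under that minimum. Upstream of the start site 50.3%, 53.5% and 57.4% of motifs were listed, and downstream 52.7%, 56.8% and 61.6%.

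**Figure D2:**
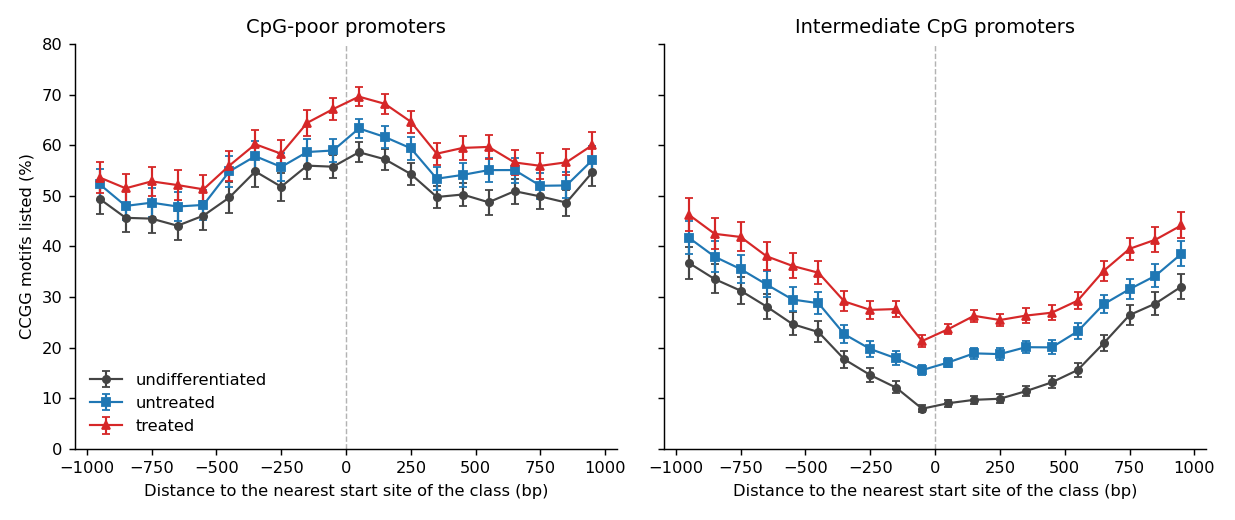
Percent of CCGG motifs listed (y axis) in 100 bp bins of distance to the nearest start site of the class (x axis, negative is upstream), for CpG-poor and intermediate promoters in the 3 libraries, with 95% Wilson intervals as bars. Listing in CpG-poor promoters peaks just downstream of the start site (58.6%, 63.3% and 69.6%), whereas intermediate promoters dip there.

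Motifs next to the start site were also more often newly listed on day 7. Of 1787 motifs within 100 bp that were not listed in undifferentiated ESCs, 24.0% (22.1 to 26.0%) were listed in untreated and 38.3% (36.1 to 40.6%) in treated cells. At 500 to 1000 bp, the shares were 16.6% (15.7 to 17.5%) and 23.3% (22.3 to 24.3%). Loss did not follow this order. Of the sites listed in undifferentiated cells, 10.8% near the start site and 10.6% far from it were not listed in untreated cells, and 9.13% and 10.6% were not listed in treated cells. Without motifs also near a start site of another CpG class, a setting added after the data were seen, the gap between the distances was smaller in both libraries. The shares newly listed in untreated and treated cells were then 25.0% (22.9 to 27.3%) and 39.4% (36.9 to 41.9%) within 100 bp. At 500 to 1000 bp they were 21.2% (19.9 to 22.5%) and 27.9% (26.5 to 29.4%). Within the treated library, CCAGG motifs of the same windows were also listed more often within 100 bp than at 500 to 1000 bp, at 41.2% against 31.6%. Whether this bears on the CCGG profile of the treated cells was not tested. At sites listed in both libraries, the median log2 ratio of treated to untreated reads was 0.27 (0.22 to 0.30) within 100 bp and 0.15 (0.12 to 0.16) at 500 to 1000 bp, and for untreated over undifferentiated it was −0.04 at both distances.

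The position of a site in its gene also went with its listing. Motifs in coding exons were listed at 59.3%, 64.6% and 66.7% in the undifferentiated, untreated and treated libraries, and motifs in 5′ UTRs at 36.9%, 42.5% and 50.5%. Introns, with 40.4% of the sites, had values of 53.7%, 56.4% and 60.5%, and sequence outside protein-coding transcripts 54.2%, 56.8% and 60.9%. The 5′ UTR had the lowest listing in each library over all these motifs. Without motifs also near a start site of another CpG class, it was listed at 52.3%, 56.6% and 65.0%, and sequence outside transcripts at 58.6%, 60.8% and 64.4%, so that in treated cells the 5′ UTR was no longer the lowest. Motifs in repeats, as masked in the assembly, were listed less often (39.5%, 40.8% and 44.1%) than other motifs.

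A TATA box is a core promoter element of many tissue-specific genes and lies a short way upstream of the start site. The 6 letters TATAAA, searched on the strand of the gene with the first T between 40 and 20 bp upstream, were present at 560 of 16594 CpG-poor start sites (3.37%), 0.888% of intermediate, 0.646% of high and 1.85% of all protein-coding start sites. Near CpG-poor start sites with these letters, 64.1% (60.4 to 67.6%) of 671 motifs were listed in undifferentiated, 67.2% in untreated and 69.6% in treated cells. Near the other CpG-poor start sites, 51.4% (50.8 to 52.0%), 55.1% and 59.6% were listed. Without motifs also near another class the gap was smaller, at 65.2% (61.4 to 68.7%) against 60.4% (59.7 to 61.0%) in undifferentiated cells, and in treated cells the intervals overlapped (66.6 to 73.7% against 66.4 to 67.7%). The letters are a match in sequence and do not show that a TATA box is used.

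Most sites of CpG-poor promoters were listed in all 3 libraries, and sites that were not were found mostly on day 7. The 3 libraries together listed 12883 of 19923 sites (64.7%), compared with 72.5% of all autosomal CCGG sites. The treated library alone listed 2058 sites (10.3%, against 5.43% of all CCGG sites), and both day 7 libraries but not the undifferentiated one listed 1884 (9.46%, against 6.37%). The undifferentiated library alone listed 823 sites (4.13%, against 5.20%). Sites listed in the treated library alone had a median of 7 reads, close to the minimum of 5, and 30.9% of them had 10 reads or more. Sites listed in both day 7 libraries had medians of 9 and 11 reads, and sites listed in all 3 libraries had medians of 27, 32 and 25 reads. Sites listed in the undifferentiated library alone had a median of 10 reads, and 50.3% of them had 10 reads or more, so they were deeper than the sites of the treated library alone.

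**Figure D3:**
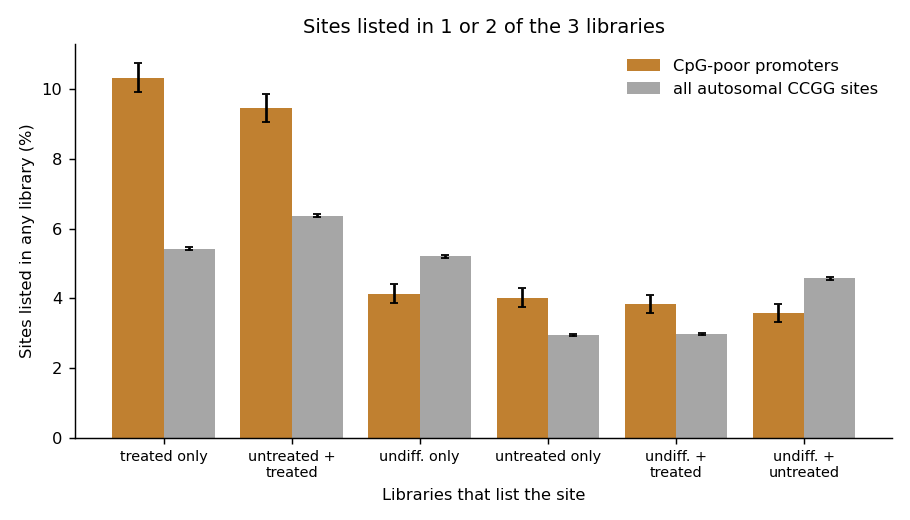
Percent of the sites listed in any library (y axis) by the libraries that listed them (x axis), for CpG-poor promoters and for all autosomal CCGG sites, without the sites listed in all 3 libraries, with 95% Wilson intervals as bars. CpG-poor promoters stand above all CCGG sites for the treated library alone (10.3% against 5.43%) and for both day 7 libraries (9.46% against 6.37%).

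In the untreated library, 2685 sites of CpG-poor promoters (13.5%) were gained relative to undifferentiated ESCs, which means that they passed the minimum of 5 reads only on day 7. Among all autosomal CCGG sites 9.32% were gained. Lost sites numbered 1585 (7.96%), against 8.17% of all sites. In the treated library, 3942 sites (19.8%) were gained and 1535 (7.70%) were lost relative to undifferentiated cells, against 11.8% and 9.78% of all sites. Between the day 7 libraries, 2820 sites (14.2%, against 8.39%) were listed in the treated one alone of the pair, and 1513 (7.59%, against 7.52%) in the untreated one. With the size-adjusted minimum of 10 reads, untreated cells gained 1625 (8.16%) and lost 2381 sites (12.0%), so that losses exceeded gains, as they did among all CCGG sites (7.39% and 12.8%). With that minimum 757 sites (3.80%, against 4.61% of all) were listed in the untreated but not in the treated library.

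Reads at sites listed in both of a pair of libraries differed little in the median. The median log2 ratio of scaled reads was −0.04 (−0.06 to −0.03) for untreated over undifferentiated cells at 13595 sites and also −0.04 for all autosomal CCGG sites. For treated over undifferentiated cells it was 0.09 (0.08 to 0.12), against −0.01 for all sites, and for treated over untreated cells 0.18 (0.16 to 0.19), against 0.05. Over the 19 autosomes, these medians ranged from −0.10 to 0.02, from 0.03 to 0.22 and from 0.12 to 0.24. Intermediate promoters had 0.32 and high CpG promoters 0.34 for treated over undifferentiated cells. The sign depends on the scale, and with the deposited RPM (reads scaled to the mapped reads of the library) the 3 medians of CpG-poor promoters were −0.28, −0.53 and −0.20. Single sites varied far more than the medians. In treated compared with undifferentiated cells 19.9% of sites were at least 2-fold higher and 14.7% at least 2-fold lower, against 17.6% and 17.0% of all autosomal CCGG sites.

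To describe genes, the reads of all listed sites in the CpG-poor promoter of a gene were summed. Among the 10308 genes, 2602 also had a start site of another CpG class, and such start sites were left out of the sum. The promoter of a gene named below is therefore its CpG-poor promoter, which need not be its only one. Of the 10308 genes, 7756 had a CCGG motif in these windows and 6755 had a listed site, with a median of 2 listed sites, and 2183 genes had 1. A promoter was called changed when its scaled reads differed at least 2-fold with each unlisted site set to 0 and to 4 reads, and when the higher library had at least 20 reads. In untreated compared with undifferentiated cells, 386 of 5644 CpG-poor promoters (6.84%) were higher and 620 (11.0%) lower, against 8.03% and 8.49% of promoters of all classes. In treated compared with undifferentiated cells, 834 of 5741 (14.5%) were higher and 577 (10.1%) lower, against 23.7% and 6.72%. In treated compared with untreated cells, 521 of 5626 (9.26%) were higher and 124 (2.20%) lower, against 16.6% and 1.89%. With RPM in place of the scale factors, the numbers higher and lower were 228 and 910, 301 and 1551, and 238 and 394, so that more promoters were lower than higher in each comparison. RPM shifts the log2 folds of promoters of every class by −0.24, −0.62 and −0.38 in these comparisons. Shares over all classes with RPM are not given here.

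CpG-poor promoters with many sites and with 1 site differed in these calls. Among promoters with 1 listed site, 209 of 1411 (14.8%) were higher and 264 (18.7%) lower in untreated over undifferentiated cells, against 17.1% and 18.7% of such promoters of all classes. In treated over undifferentiated cells 284 of 1409 (20.2%) were higher and 293 (20.8%) lower, against 22% and 20.6%, and in treated over untreated cells 132 of 1324 (9.97%) were higher and 81 (6.12%) lower, against 11.3% and 7.5%. Among promoters with at least 4 listed sites, 43 were higher and 78 lower of 1986 in untreated over undifferentiated cells. These were 2.17% and 3.93%, against 2.91% and 3.36% of promoters of all classes with at least 4 sites. In treated over undifferentiated cells 249 of 2039 (12.2%) were higher and 44 (2.16%) lower, against 23.4% and 1.24% of all classes. In treated over untreated cells 195 of 2044 (9.54%) were higher, against 18.5%, and 3 (0.147%) lower, against 0.149%. The shares of CpG-poor promoters called higher in treated cells were thus below those of all classes. A single site reaches a 2-fold difference by counting error more readily than a sum over sites, and the promoters with at least 4 sites described here were chosen after their values were seen.

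The largest increases in untreated over undifferentiated cells were at promoters with 1 listed site. Cxcl15, which encodes a chemokine of the lung, was not listed in undifferentiated cells and had 49 reads in untreated and 38 in treated cells at a site 45 bp upstream of its start site, which is at least 10.0-fold higher in untreated cells if the unlisted site had 4 reads. Csnk1g1, encoding a casein kinase, had 0 listed reads, 46 and 22, and Cyp2d11, encoding a cytochrome P450, had 0, 44 and 21. Csnka2ip had 7, 71 and 33 reads (8.30-fold, 95% exact binomial interval 3.83 to 21.4) and Fam90a1a 5, 50 and 49 reads (8.18-fold, 3.28 to 26.3). All 5 were also higher in treated than in undifferentiated cells.

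With at least 4 listed sites, the largest increases were at Pou5f1, Cpsf4l and Kctd16. Pou5f1 encodes the pluripotency factor OCT4 and had 6, 124 and 83 reads over 5 sites in undifferentiated, untreated and treated cells, with 6, 74 and 34 of them at the site 209 bp upstream whose sequence is shown above. Cpsf4l, on chromosome 11, had 56, 245 and 159 reads over 9 sites (3.58-fold for untreated over undifferentiated, 2.67 to 4.88, and 2.83-fold with unlisted sites at 4 reads). At 7 of these 9 sites the untreated library had the most reads, for example 18, 74 and 49 reads at the site 763 bp downstream of a start site. Kctd16, encoding an auxiliary subunit of GABA-B receptors, had 44, 168 and 109 reads over 4 sites, all of them higher on day 7.

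Other promoters had fewer reads on day 7. Arl8b, which encodes a small GTPase of lysosomes, had 95 reads in undifferentiated cells, was not listed in untreated cells and had 15 reads in treated cells, at least 29.0-fold lower in untreated cells. Serpina3n, encoding a serine protease inhibitor, had 118, 6 and 20 reads. Zdhhc1, encoding a palmitoyltransferase, had 58 reads in undifferentiated cells and none listed on day 7, and the odorant receptor genes Olfr1138 and Olfr804 had 56 and 55 reads in undifferentiated cells and none listed on day 7. These were all promoters with 1 listed site.

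With 4 listed sites, Klhdc7a had 140, 8 and 18 reads, and each of its sites was lower on day 7. Its site 38 bp upstream of the start site, shown above, had 40 reads in undifferentiated cells and was listed in neither day 7 library. Prkd3, encoding protein kinase D3, had 198, 47 and 24 reads, and Crb3, a gene of epithelial polarity, had 80, 17 and 24. In Crb3, 70, 12 and 16 of these reads came from 1 repeat-masked site.

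The largest increases in treated over undifferentiated cells were in promoters that also had more reads in untreated than in undifferentiated cells. Akap10, which encodes an anchoring protein of protein kinase A, had no listed reads in undifferentiated cells, 30 in untreated and 63 in treated cells, at least 18.4-fold higher in treated cells. D3Ertd751e (0, 25 and 57 reads), Panx3, a pannexin channel gene (0, 26 and 51), Ugt1a8, a glucuronosyltransferase gene (0, 25 and 43), and Nyap2, a gene of neuronal signalling (0, 16 and 40), had the same order. Among promoters with at least 4 sites, Lrrc4b, encoding a synaptic adhesion protein, had 7, 48 and 116 reads, and the order was the same at each of its 4 sites, of which the one 339 bp downstream had 0, 13 and 51 reads. Ticam2, encoding an adaptor of Toll-like receptor signalling, had 0, 26 and 65 reads over 4 sites.

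The lowest promoters in treated relative to undifferentiated cells, besides Zdhhc1, Olfr1138 and Olfr804, were Vmn1r27, a vomeronasal receptor gene with 127, 26 and 9 reads at a coding exon site, and Mamdc4, with 92, 12 and 7 reads at a repeat-masked intron site. With at least 4 sites, Pax4, encoding a transcription factor of pancreatic islet development, had 134, 58 and 22 reads. Its sites 765 and 460 bp downstream of a start site had the same order (59, 9 and 0 reads, and 45, 13 and 6 reads), whereas its site 128 bp upstream had 7, 17 and 7 reads.

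Relative to untreated cells, treated cells had the largest increases at Vmn2r23, Btnl6, Cldn9, Opalin and Vmn1r35, each with 1 listed site. Vmn2r23 had 13, 5 and 36 reads (10.3-fold for treated over untreated, 4.02 to 33.5). Cldn9, a tight junction gene, had 24 reads in treated cells and was not listed in the other libraries (at least 8.56-fold), Opalin, a gene of oligodendrocytes, had 23 and Vmn1r35 had 23, also in the treated library alone. Btnl6 had 10, 0 and 24 reads. Among promoters with at least 4 sites, Has2, which encodes a hyaluronan synthase, had 6, 15 and 116 reads over 7 sites (11.0-fold, 6.42 to 20.3, with unlisted sites at 0 reads). With unlisted sites at 4 reads the fold was 4.73, below that interval. Treated cells had the most reads at all 7 sites, and 5 of them were listed in treated cells alone. Actn3, the alpha-actinin of fast muscle, had 5, 13 and 65 reads and S1pr1, a receptor of sphingosine 1-phosphate, had 14, 16 and 79, also with the most reads in treated cells at each listed site. The CpG ratios of these 3 promoters were 0.457, 0.476 and 0.394, in the upper part of the class.

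Fewer CpG-poor promoters were lower in treated than in untreated cells. The odorant receptor gene Olfr399 had 11, 52 and 5 reads in undifferentiated, untreated and treated cells, and the serine protease gene Prss38 had 7, 28 and 0. Atpaf1, a gene of mitochondrial ATP synthase assembly, had 45, 39 and 6 reads, Gjb5, a connexin gene, 27, 26 and 0, and Sftpc, which encodes a lung surfactant protein, 38, 24 and 0. The 3 promoters with at least 4 sites were Spp1, Rbpj and Tpi1. Rbpj, encoding the DNA-binding factor of Notch signalling, had 36, 119 and 22 reads and was higher in untreated than in the other libraries at each of its 5 listed sites, among them 12, 43 and 10 reads 9 bp upstream of the start site. Tpi1, encoding the glycolytic enzyme triosephosphate isomerase, had 107, 87 and 30 reads.

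Of the genes of pluripotency, none had a promoter called higher in treated than in untreated cells, and between untreated and undifferentiated cells the balance of calls depended on the scale. Of 37 genes in the list, 21 had a CpG-poor start site, and all 21 had a listed site there. Of their 127 CCGG motifs, 41.7% (33.5 to 50.4%) were listed in undifferentiated, 54.3% (45.7 to 62.7%) in untreated and 43.3% (35.0 to 52.0%) in treated cells, with overlapping intervals. In untreated over undifferentiated cells, 4 of 18 promoters (22.2%) were higher and 2 (11.1%) lower, against 6.84% and 11.0% of all 5644 CpG-poor promoters, and the median log2 fold, with unlisted sites at 4 reads, was 0.25, against −0.08. In treated over untreated cells, none of 18 was higher and 3 (16.7%) were lower, against 9.26% and 2.20% of all CpG-poor promoters, and the median was −0.074, against 0.13. In treated over undifferentiated cells, 3 of 17 (17.6%) were higher and 3 lower, against 14.5% and 10.1%, with a median of 0.02 against 0.06. With unlisted sites at 0 reads the 3 medians were 0.33, −0.15 and −0.10, so that the last of them changed its sign. With RPM the log2 folds of all promoters shift by −0.24, −0.38 and −0.62 in these 3 comparisons. The numbers of pluripotency promoters called higher and lower were then 2 and 3, 0 and 4, and 1 and 7, against 4.04% and 16.1%, 4.23% and 7.0%, and 5.24% and 27.0% of all CpG-poor promoters. Fbxo15 and Dppa2 were no longer called higher in untreated than in undifferentiated cells, and Tdh was called lower. The genes were chosen with results on them known, and the ones named beyond the 4 with the most reads were named after their values were seen.

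**Figure D4:**
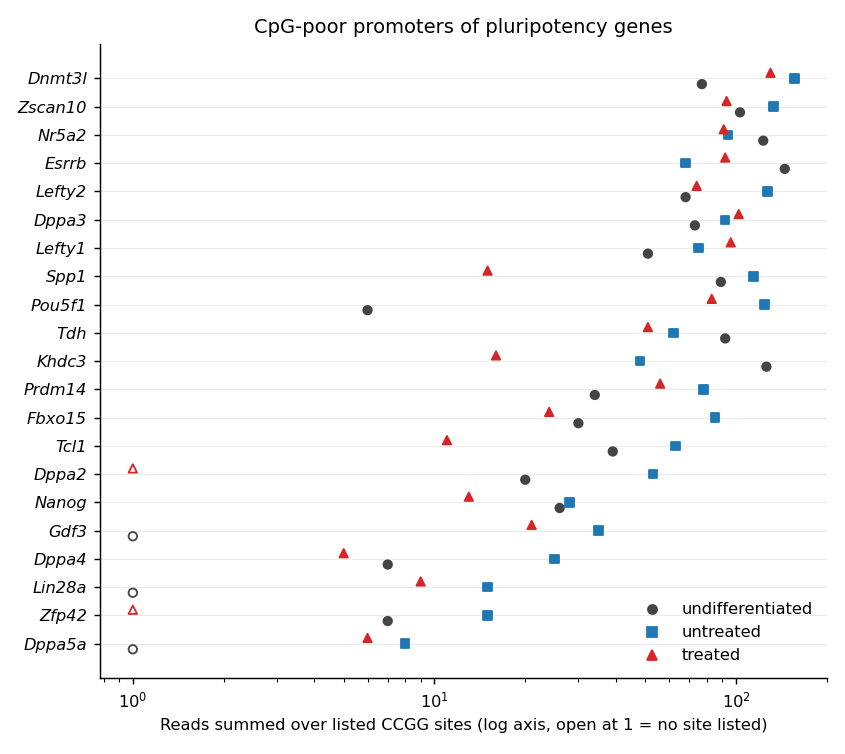
Reads summed over the listed CCGG sites of the CpG-poor promoter (x axis, log scale) for 21 pluripotency genes (y axis) in the 3 libraries, with 1 library per condition and raw counts. Open symbols at 1 mark promoters with no listed site. Treated cells stand far to the left of untreated cells at Spp1 (15 against 114 reads), Tcl1 (11 against 63) and Dppa2 (none listed against 53).

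The pluripotency promoters that were higher in untreated than in undifferentiated cells were those of Pou5f1, Gdf3, Fbxo15 and Dppa2. Gdf3, which encodes a ligand of the TGF-beta family, had 0, 35 and 21 reads over 2 intron sites. Fbxo15, an F-box gene used as a marker of pluripotency, had 30, 85 and 24 reads over 3 sites. Dppa2, which encodes a DNA-binding protein of early embryos, had 20, 53 and 0 reads over 3 sites. In the 115 bp of Dppa2 shown above, the sites had 9 and 5 reads in undifferentiated, 5 and 28 in untreated cells, and neither was listed in treated cells. Of these 4 genes, Pou5f1 and Gdf3 were also called higher in treated over undifferentiated cells, although Gdf3 was not with RPM.

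Esrrb and Khdc3 were lower in untreated cells. Esrrb, encoding an orphan nuclear receptor that maintains self-renewal, had 145, 68 and 92 reads over 6 sites, and the sites 107 and 10 bp upstream of its start site had 75, 16 and 44 reads and 50, 17 and 11 reads. Khdc3, a gene of oocytes and early embryos, had 126, 48 and 16 reads, of which 99, 31 and 16 came from a site in a coding exon. In treated over untreated cells Spp1, Tcl1 and Dppa2 were lower. Spp1, which encodes the matrix protein osteopontin, had 89, 114 and 15 reads over 6 sites (0.188-fold, 0.102 to 0.323, and 0.375-fold with unlisted sites at 4 reads), and treated cells had the fewest reads, or shared the lowest place, at each of them. Tcl1, encoding a cofactor of the kinase AKT, had 39, 63 and 11 reads. Zfp42, which encodes REX1, had 7, 15 and 0 reads at 1 listed site of 7 motifs, too few for a call.

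Other pluripotency promoters differed less between the libraries. Dnmt3l, encoding the cofactor of the de novo methyltransferases, had the most reads of the list with 77, 156 and 130. Zscan10 had 103, 133 and 93 reads, Nr5a2 123, 94 and 91, and Lefty2, an inhibitor of Nodal signalling, 68, 127 and 74. Its neighbour Lefty1 had 51, 75 and 96 reads and was called higher in treated than in undifferentiated cells (2.20-fold, 1.55 to 3.15), although not with RPM. Nanog had 26, 28 and 13 reads over 2 intron sites, and no call was made with the scale factors. With RPM it was called lower in treated than in undifferentiated cells.

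Motifs in promoters of genes of differentiated tissues were mostly listed already in undifferentiated ESCs, as were those of CpG-poor promoters in general (51.7%, and 60.5% without motifs near another class). Of the motifs in CpG-poor promoters of pancreas genes, 83.3% were listed in undifferentiated, 69.4% in untreated and 75.0% in treated cells, and for germ cell genes the shares were 73.1%, 76.9% and 75.0%. Genes of the nervous system and eye had 71.2%, 71.2% and 76.9%, muscle genes 68.4%, 74.5% and 72.4%, liver and yolk sac genes 67.3%, 69.1% and 67.3%, and blood and immune genes 65.5%, 71.3% and 69.0%. The intervals of the 3 libraries overlapped in each list. In undifferentiated cells only the interval of pancreas genes (68.1 to 92.1%) lay above the 60.5%. The intervals of all the other tissue lists held it. In untreated over undifferentiated cells, muscle genes had 0 of 21 promoters higher and 1 lower, and blood and immune genes 1 of 24 higher and 1 lower, against 6.84% higher and 11.0% lower of all CpG-poor promoters. Genes of the nervous system and eye had 0 of 12 higher and 2 lower, with a median log2 fold of −0.45, against −0.08 for all CpG-poor promoters. In treated over undifferentiated cells, 4 of 22 blood and immune promoters (18.2%) were higher and 1 lower, and 2 of 13 germ cell promoters (15.4%) were higher and 1 lower, against 14.5% and 10.1%. The other tissue lists had fewer promoters called higher in this comparison, with 1 of 22 for muscle (2 lower), 1 of 15 for liver and yolk sac (1 lower), 0 of 10 for pancreas (0 lower) and 0 of 12 for the nervous system and eye (2 lower, median −0.52). With RPM the numbers higher and lower were 1 and 2 for blood and immune, 0 and 2 for germ cell and 1 and 6 for muscle genes. They were 1 and 4 for liver and yolk sac, 0 and 2 for pancreas and 0 and 7 for nervous system and eye genes. Of all CpG-poor promoters, 5.24% and 27.0% were then higher and lower. Among the germ cell genes, Astl, encoding a protease of the oocyte, had 98, 178 and 176 reads and was called higher in treated than in undifferentiated cells (2.10-fold, 1.63 to 2.71), although not with RPM. Tnp1, encoding a chromatin protein of spermatids, had 180, 127 and 69 reads and was called lower (0.447-fold, 0.334 to 0.593). The 4 genes with the most reads in each of the other tissue lists were called in no comparison with the scale factors. With RPM some of them, among them Ahsg, were called lower in treated than in undifferentiated cells. The muscle gene Tnni2 had 335, 363 and 309 reads over 9 sites, the carboxyl ester lipase gene Cel 269, 309 and 199, and the liver gene Ahsg 282, 204 and 153.

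**Figure D5:**
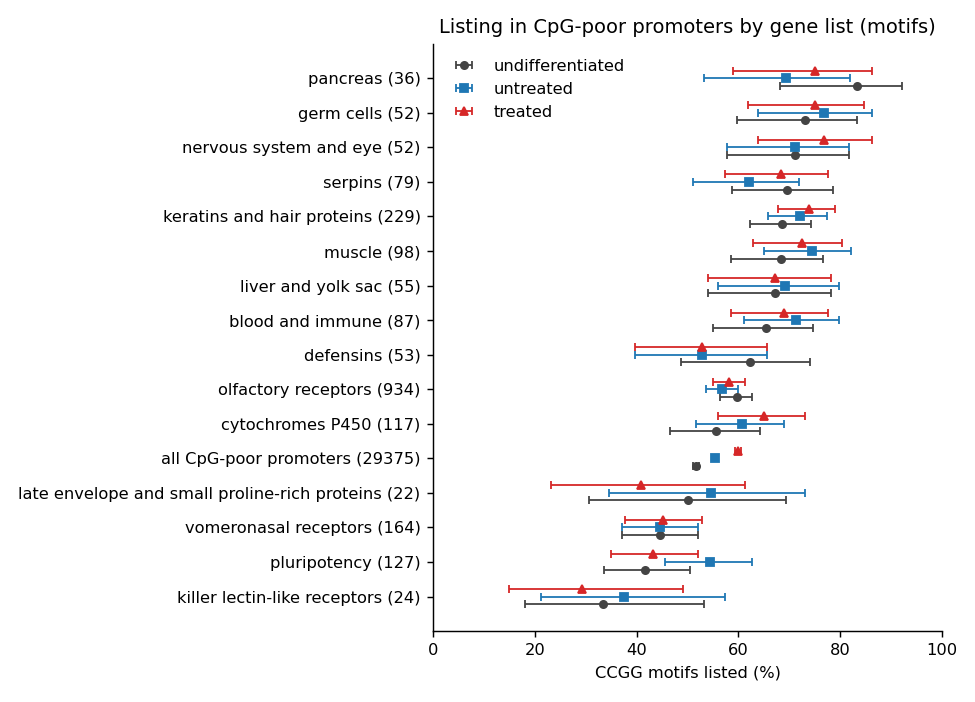
Percent of CCGG motifs listed (x axis) in CpG-poor promoters of the gene lists with at least 22 motifs (y axis, number of motifs in parentheses) in the 3 libraries, with 95% Wilson intervals as bars. In undifferentiated ESCs most tissue lists lie above all CpG-poor promoters (51.7%). Of the tissue lists, only pancreas genes have an interval above 60.5%, the share without motifs near another class. Pluripotency genes lie at 41.7%, 54.3% and 43.3%.

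The large gene families differed from each other in listing. Odorant receptor genes were the largest, with 1115 genes, of which 564 had a CCGG motif in the promoter window. Of their 934 motifs, 59.6% (56.5 to 62.7%) were listed in undifferentiated, 56.7% in untreated and 58.1% in treated cells, so that the increase over libraries seen for all CpG-poor promoters was not seen in these values. Nor was it seen at all start sites with a CpG ratio below 0.1 (58.4%, 58.0% and 59.0%). Odorant receptor genes were not compared with other promoters of like CpG ratio. In untreated over undifferentiated cells 27 of 320 (8.44%) were higher and 62 (19.4%) lower, against 6.84% and 11.0% of all CpG-poor promoters, with a median log2 fold of −0.23 against −0.08. In treated over undifferentiated cells 43 of 323 (13.3%) were higher and 70 (21.7%) lower, against 14.5% and 10.1%, with a median of −0.24 against 0.06. With RPM 24 (7.43%) were higher and 136 (42.1%) lower in that comparison, against 5.24% and 27.0%. Most of these promoters had 1 listed site, and among those 24 of 198 (12.1%) were higher and 47 (23.7%) lower in untreated over undifferentiated cells, against 14.8% and 18.7% of all CpG-poor promoters with 1 site. With 2 or more sites 3 of 122 (2.46%) were higher and 15 (12.3%) lower, against 4.18% and 8.41%. The gap in the share called lower was thus smaller against promoters split by their number of sites. Olfr373 had the most reads, with 477, 387 and 275 over 7 sites. Vomeronasal receptor genes were listed at 44.5%, 44.5% and 45.1% of 164 motifs. In untreated over undifferentiated cells 8 of 46 (17.4%) were higher and 10 (21.7%) lower, against 6.84% and 11.0% of all CpG-poor promoters. With 1 listed site 7 of 31 (22.6%) were higher and 9 (29.0%) lower, against 14.8% and 18.7%. With 2 or more sites 1 of 15 (6.67%) was called in each direction, against 4.18% and 8.41%. These families hold closely related copies, and only uniquely mapped reads were counted by the authors, so sites in near-identical copies are uncertain.

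Genes whose symbols begin with Krt, mostly keratins and keratin-associated proteins, were listed at 68.6%, 72.1% and 73.8% of 229 motifs. In untreated over undifferentiated cells 40 of 59 were above 0 on the log2 scale, against 2555 of all 5644 CpG-poor promoters, with a median of 0.19 that lies below 0 with RPM, which shifts all promoters by −0.24, and 2 (3.39%) were called higher and 3 (5.08%) lower, against 6.84% and 11.0% of all CpG-poor promoters. Krt35, a hair keratin gene, had 354, 570 and 313 reads. Cytochrome P450 genes of families with symbols beginning with Cyp2, Cyp3 or Cyp4 were listed at 55.6%, 60.7% and 65.0% of 117 motifs, with 4 of 29 (13.8%) called in each direction in untreated over undifferentiated cells. Serpin genes were listed at 69.6%, 62.0% and 68.4%, with none of 20 higher and 4 (20.0%) lower in untreated over undifferentiated cells (median −0.35), and defensin genes at 62.3%, 52.8% and 52.8%, with 1 of 15 (6.67%) higher and 5 (33.3%) lower (−0.29), against the same 6.84% and 11.0%. Killer lectin-like receptor genes had the lowest listing, at 33.3%, 37.5% and 29.2% of 24 motifs. The 3 smallest families, placental prolactins, late envelope and small proline-rich proteins, and caseins, had 17, 22 and 4 motifs, of which 13, 11 and 3 were listed in undifferentiated cells.

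The CpG-poor promoters with the most reads were similar in the 3 libraries. AW822073 had 775, 929 and 740 reads over 2 sites, and 691, 877 and 693 of them came from the deepest site of the class, in a coding exon. Myo15b had 533, 736 and 483 reads over 15 sites, Prr29 673, 618 and 461 over 14, Myo18a 591, 642 and 469 over 20 and Arhgef10l 525, 648 and 478 over 21. None of these was called in any comparison. Plec, encoding the cytoskeletal linker plectin, had the most listed sites, with 448, 590 and 508 reads over 30 sites. Gramd1b had 20 listed sites with 501, 632 and 475 reads. Hr, which encodes a corepressor of the hair follicle, differed from these with 169, 225 and 334 reads over 21 sites. Its treated reads were 2.31-fold (1.91 to 2.79) those of undifferentiated cells, and 1.90-fold with unlisted sites at 4 reads, so that it was not called.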

How the data were processed

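Per the labels and the study's methods, genomic DNA of the 3 samples was digested with FspEI, and tags were size-selected and sequenced (1 library per condition). The authors kept reads with an enzyme site, mapped them to GRCm38 with Bowtie2 2.3.3, counted uniquely mapped reads per site and deposited the count of each site with at least 5 reads. The deposited RPM of a site is its count divided by the mapped reads, 50959931, 73712891 and 67235311 in the undifferentiated, untreated and treated libraries, times 1000000. Here, CCGG sites on 19 autosomes were joined to all CCGG motifs of GRCm38 and to protein-coding start sites of GENCODE release M21 basic. Start sites were classed in the centred 500 bp as CpG-poor (ratio below 0.48), high (above 0.75 with a GC content above 55%) or intermediate. Site types other than CCGG were used only for the CCAGG values.

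The lists held 40176194, 45216192 and 42020661 reads at all site types. Shares have Wilson intervals, differences of shares Newcombe intervals, medians distribution-free binomial intervals and folds exact binomial intervals at the 95% level. PCR copies were counted as reads, so the intervals cover counting error alone, and nearby sites can share tags. The alternatives were minimums of 10 reads, a CpG ratio below 0.40, windows of 500 bp, exclusion of sites near start sites of another class, other scalings, folds of 3, and 50 reads. The named promoters were the 5 with the largest fold in each direction and comparison (unlisted sites at 4 reads), the 5 with the most reads, the 5 with the most listed sites and up to 4 per gene list. Promoters without a gene name (Gm, Rik) were passed over where 5 others were left. Sequences were read from the RefSeq copy of GRCm38. The members, lists and tests were chosen with earlier results of these data known. A gene of the pluripotency list and a gene of the blood and immune list are not reported here and were left out of the counts of their lists. The functions were tested on simulated data. The software was Python 3.11.15 with pandas 2.3.3, numpy 2.4.6, matplotlib 3.10.9 and SciPy 1.17.1.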

Additional observations from a re-analysis of the deposited data

How the results depend on the processing

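No paired analysis was possible because there was 1 library per condition, and no library could be left out for the same reason. The shares of motifs listed kept the order undifferentiated, untreated, treated except with the size-adjusted minimum, and their values in that order were 41.5%, 43.8% and 45.6% with a minimum of 10 reads, 41.5%, 39.0% and 48.0% with the size-adjusted minimum, 56.8%, 59.6% and 63.0% at a CpG ratio below 0.40, 60.5%, 63.4% and 67.1% without sites near another class, and 54.2%, 58.2% and 63.5% within 500 bp. The difference between motifs within 100 bp and at 500 to 1000 bp was 4.91, 7.10 and 9.41 points with a minimum of 10 reads, 4.91, 5.53 and 10.4 with the size-adjusted minimum, 13.5, 13.1 and 16.0 at a ratio below 0.40, −0.047, 1.0 and 5.29 without sites near another class, and −2.91, −0.48 and 1.67 without those sites and with a minimum of 10 reads, a setting chosen after seeing the data. With the size-adjusted minimum, untreated cells gained 1625 and lost 2381 sites, and 757 sites were lost from untreated to treated cells. Within 500 bp, fewer motifs were counted, and gained and lost sites numbered 1578 and 916 (untreated against undifferentiated), 2390 and 866 (treated against undifferentiated) and 1713 and 851 (treated against untreated).

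The median log2 ratios, in the order untreated over undifferentiated, treated over undifferentiated and treated over untreated, were −0.28, −0.53 and −0.20 with RPM. With total CCGG reads the first median was 0.036 and the second 0.17. With at least 10 reads in both libraries, the last 2 were 0.040 and 0.12. For treated over untreated, the median was 0.16 at a ratio below 0.40 and 0.21 within 500 bp. Promoters called higher and lower in the same 3 comparisons numbered 210 and 350, 418 and 373, and 237 and 68 with at least 50 reads, and 117 and 269, 322 and 228, and 155 and 24 with a fold of at least 3. With RPM, 228 were higher in the first, 301 were higher and 1551 lower in the second, and 238 and 394 in the last. Shares over promoters of all classes are not given for these settings, nor shares over all CCGG sites within 500 bp. The counts therefore describe CpG-poor promoters alone. Pluripotency promoters called higher and lower with RPM, a setting added after seeing the data, numbered 2 and 3, 1 and 7, and 0 and 4. The cause of these differences was not tested, except that stricter limits leave fewer sites and promoters to count. The number of promoters with a listed site stayed within 1.5 times its value in each gene list with a minimum of 10 reads. The minimum of 5 reads limits all listing, since a site near it can be listed or not by counting error.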
